A study of Mus musculus with 24 samples.

Results

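Transcripts of 9 mouse genes that govern or carry out apoptosis were examined in cultured embryos exposed for 1 h to 4-hydroperoxycyclophosphamide (4CP). The genes were Mcl1 and Bnip3l of the BCL2 family, the inhibitor of apoptosis genes Birc3 and Birc5, the mitochondrial death factors Diablo, Cycs and Aifm1, and the programmed cell death genes Pdcd5 and Pdcd6. Every probe annotated to exactly 1 of these symbols was taken, 14 of 15360 in all. Set 1, the first array platform, held 9 such probes of 8 genes among 7680, and set 2, the other platform, held 5 probes of 4 genes among 7680. Mcl1, Bnip3l and Birc3 were measured in both sets, Cycs had 2 probes in set 1 and Bnip3l 2 in set 2. Birc5, Diablo, Pdcd5 and Pdcd6 were in set 1 only, and Aifm1 was in set 2 only.

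The samples were mouse embryos kept in culture at 37 °C, either untreated or with 40 µM 4CP, an analogue of cyclophosphamide that is already activated. Strain, embryonic age and the number of embryos per RNA sample are not given in the labels. Treated and control RNA shared every array, and 24 array records made up 12 slides with 2 records each and 6 slide pairs, in which the second slide had the channels exchanged. The labels do not say whether the 2 records of a slide are 2 arrays or 2 scans of the same array. They are called arrays here, and their spread within a slide may be that of scans alone. Each set held 3 of these pairs, numbered 1 to 3 in the titles. Nothing in the labels ties a pair to a separate culture or litter, so p-values measure the spread between pairs, which may be technical.

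In the mitochondrial pathway of apoptosis, pro-death members of the BCL2 family open pores in the outer mitochondrial membrane, and survival members such as MCL1 hold them back. Cytochrome c leaves through the pores and assembles the caspase-activating apoptosome, while SMAC, encoded by Diablo, removes the inhibitor of apoptosis proteins from caspases and AIF, encoded by Aifm1, moves to the nucleus. Cyclophosphamide metabolites crosslink DNA, and tissues of the early embryo are known to differ in how readily they enter this pathway. Most of its steps are set by protein release and cleavage, which an RNA measurement does not see. In whole embryos, fewer cells of a type and less RNA per cell cannot be told apart.

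The lines here give the 250 bases just upstream of the RefSeq start of 3 members (build GRCm38.p6, read 5′ to 3′ on the strand of the gene). Cycs is shown because its 2 probes gave different values, and Aifm1 because its probe had the largest effect among the 14. Birc5 is shown because its stretch alone among members holds the NF-κB letters searched, GGACTTTCC. Other NF-κB sequences were not searched. They lie at chr6:50566570-50566819 on the minus strand, chrX:48513564-48513813 on the minus strand and chr11:117848987-117849236 on the plus strand. Capitals mark the motifs found.
Cycs: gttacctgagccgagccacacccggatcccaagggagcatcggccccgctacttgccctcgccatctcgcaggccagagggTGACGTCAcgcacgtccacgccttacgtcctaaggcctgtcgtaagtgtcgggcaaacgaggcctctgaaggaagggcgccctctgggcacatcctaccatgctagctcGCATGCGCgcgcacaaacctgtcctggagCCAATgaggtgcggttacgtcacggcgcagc
Aifm1: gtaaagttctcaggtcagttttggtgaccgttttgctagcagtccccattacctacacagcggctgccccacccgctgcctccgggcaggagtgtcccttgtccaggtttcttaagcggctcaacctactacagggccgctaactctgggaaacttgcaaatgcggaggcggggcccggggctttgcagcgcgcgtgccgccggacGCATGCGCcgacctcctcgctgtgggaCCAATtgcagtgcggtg
Birc5: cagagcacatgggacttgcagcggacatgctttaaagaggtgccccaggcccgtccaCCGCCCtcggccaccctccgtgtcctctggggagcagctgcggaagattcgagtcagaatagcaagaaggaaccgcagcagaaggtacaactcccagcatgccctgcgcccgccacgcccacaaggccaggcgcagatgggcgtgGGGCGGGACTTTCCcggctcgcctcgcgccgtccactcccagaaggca

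Motifs were searched on both strands in the same 250 bases of 32851 RefSeq windows, 8 of which belonged to members; Bnip3l was not matched. The cAMP response element TGACGTCA was in the Cycs window alone among members and in 1.55% of all windows. The NRF1 core GCATGCGC was in Cycs and Aifm1 and in 2.26% of windows. The NF-κB letters GGACTTTCC were in Birc5 and in 0.283% of windows, and in Birc5 they overlap a GC box by 1 base. The CCAAT box (letters CCAAT) was in Diablo, Cycs and Aifm1 (33.8% of windows), the GC box GGGCGG in Mcl1, Birc5, Diablo and Pdcd6 (32.7%), and the cell cycle letters TTTGAA in Mcl1 (16%). These are matches of letters, not shown to be sites. None of these letters was found in the windows of Birc3 or Pdcd5. The Mcl1 window, chr3:95658471-95658720, lies inside the RefSeq span of the gene, chr3:95656944-95663179, so its matches are not upstream of that span. The Birc3 window, chr9:7873171-7873420 on the minus strand, overlaps the span of its gene, chr9:7847468-7873205.

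The values are log ratios of the 2 channels. Their base (2 or e), the numerator channel and whether swapped slides had been turned before deposit are not stated in the labels. After each array was centred on its median, the effect of a pair was computed as the value of the slide whose channel 1 held treated RNA minus that of its partner, divided by 2. A value above 0 stands for more RNA after treatment where channel 1 is the numerator, and for less where channel 2 is. The mean of both slides of a pair is called the sum component. It holds what stays when channels are exchanged, such as a dye effect, and it would be the treatment effect if swapped slides had been turned before deposit.

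None of the 14 probes passed limma's test of the mean effect over 3 pairs at an adjusted p of 0.05. The background was 0% of 7680 probes in set 1 and 0% in set 2, with lowest adjusted p-values of 0.997 and 0.673 over all probes. At an unadjusted p under 0.05 with limma there were 0 of 9 member probes in set 1, where 2.34% of all probes had one, and 1 of 5 in set 2 (Aifm1), where 5.22% did. The median member effect was 0.00751 in set 1 and 0.0185 in set 2. The absolute size exceeded that of the median probe, 0.0354 and 0.0234, for 4 of 9 and 2 of 5.

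An effect above 0 in all 3 pairs was found for 1 of 9 probes in set 1 (Diablo; 11.4% of all probes) and 1 of 5 in set 2 (Aifm1; 9.84% of all). An effect below 0 in all 3 pairs was found for 0 of 9 (11.2% of all) and 0 of 5 (14.7% of all). With so few members, these counts are no result about them. The limma 95% intervals reached at most 0.184 to either side of a mean in set 1 and 0.113 in set 2. A log ratio of 0.1 corresponds to a ratio of 1.07 for base 2 or 1.11 for base e. Within a pair, the 2 arrays of each orientation did not overlap for 5, 4 and 3 of 9 set 1 probes in pairs 1, 2 and 3, where 59.6%, 44.1% and 32.8% of all probes did not. In set 2 the counts were 0, 1 and 1 of 5, against 28.6%, 25.3% and 38.3% of all probes. Over all pairs at once, 6 arrays against 6 overlapped for each of the 14 probes and for every probe of both sets (0% without overlap), which says little, since pairs lie far apart.

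**Figure D1:**
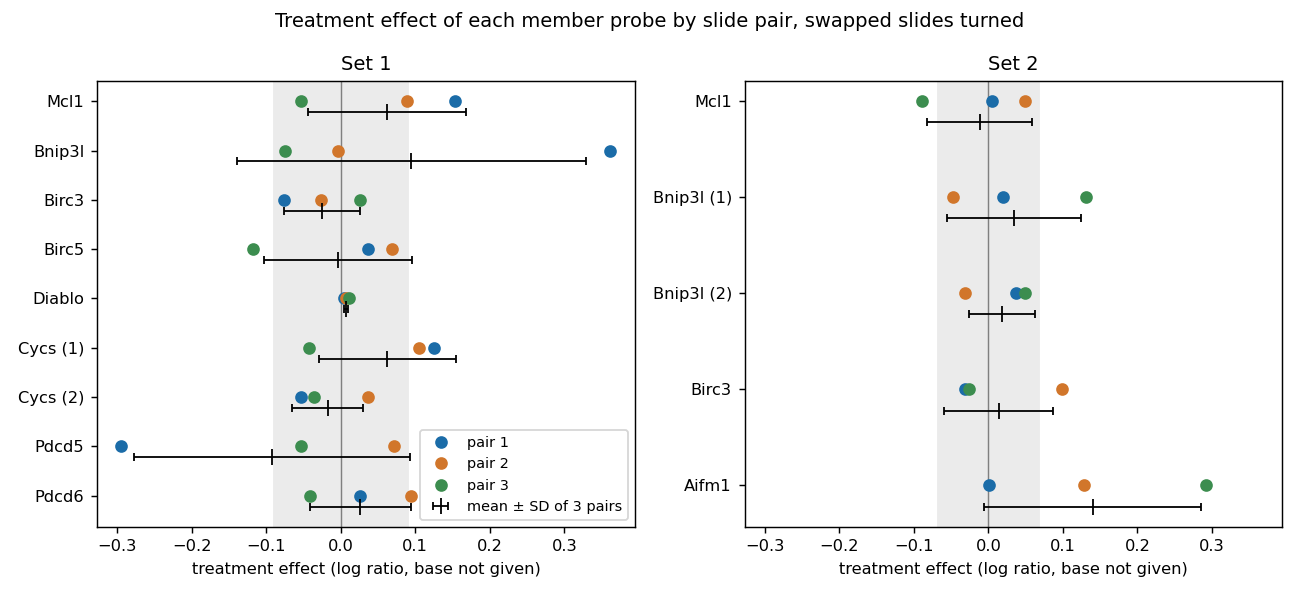
Treatment effect of each member probe on the x axis (log ratio, base not given), with 1 point per slide pair and a bar for the mean ± SD of 3 pairs. Panels are the sets of arrays. The grey band holds the mean effects of 90% of all probes, so it is no range for the points of single pairs. Points of most probes fall on both sides of 0, and Bnip3l of set 1 and Pdcd5 in pair 1 and Aifm1 in pair 3 lie farthest out.

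Mcl1 (chr3:95656944-95663179; gene spans here and after are RefSeq's on GRCm38.p6) encodes a short-lived survival protein of the BCL2 family that the early embryo needs. Its set 1 probe had effects of 0.154, 0.0882 and -0.0539 in pairs 1, 2 and 3, a mean of 0.0626 ± 0.106 (SD, n = 3; limma adjusted p = 0.997, 95% interval -0.0631 to 0.188). Pairs 1 and 2 were above 0 and pair 3 below. On the other platform the effects were 0.00483, 0.0487 and -0.0884, with a mean of -0.0116 ± 0.07 (adjusted p = 0.999, interval -0.0911 to 0.0679). Pair 3 again had the lowest value. Of the 6 arrays of set 2 with treated RNA in channel 1, 5 lay between -0.242 and -0.13 and the second array of pair 2 at 0.207. Without that array, a choice made after seeing it, the mean was -0.0478.

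Bnip3l (chr14:66985238-67008877) encodes NIX, a protein of the outer mitochondrial membrane related to the BH3-only proteins, which marks mitochondria for removal in maturing red cells. Its set 1 probe had 0.362, -0.00438 and -0.0742 in the 3 pairs, a mean of 0.0944 ± 0.234 (SD, n = 3; adjusted p = 0.997). Pair 1 was far above the others. Its arrays had centred values of -0.193 and 0.395 with treated RNA in channel 1 against -0.827 and -0.419 after the exchange. Without pair 1 the mean was -0.0393, so its sign rested on that pair. The set 2 probes had 0.0201, -0.0472 and 0.13 (mean 0.0345 ± 0.0897) and 0.0375, -0.0318 and 0.0498 (mean 0.0185 ± 0.044). Both had the same order of signs, with pair 2 below 0, and neither passed (adjusted p = 0.984 and 0.994).

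Among inhibitors of apoptosis, Birc3 (chr9:7847468-7873205) encodes cIAP2, a ubiquitin ligase of TNF receptor and NF-κB signalling. It had -0.0762, -0.0266 and 0.0262 in set 1 (mean -0.0256 ± 0.0512, SD, n = 3) and -0.0309, 0.0984 and -0.0256 in set 2 (mean 0.014 ± 0.0732). The mean signs were opposite, and neither probe passed (adjusted p = 0.997 and 0.998). Birc5 (chr11:117849237-117855743) encodes survivin, which serves mitosis as a subunit of the chromosomal passenger complex beside its role in cell survival. Its effects were 0.0367, 0.0689 and -0.118, with a mean of -0.00399 ± 0.0997 (adjusted p = 0.999, interval -0.128 to 0.12). The pairs fell on both sides of 0.

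Diablo (chr5:123511330-123524164), the gene of SMAC, had the narrowest spread of all members, with 0.00485, 0.00717 and 0.0105 in the 3 pairs. The mean was 0.00751 ± 0.00285 (SD, n = 3; adjusted p = 0.998, interval -0.0982 to 0.113), and 89.2% of probes in the set had a larger size. Its slide values were -0.172, 0.152 and -0.153 with treated RNA in channel 1 and -0.181, 0.138 and -0.174 after the exchange. Its sign turned to -0.0134 with arrays scaled, to -0.0155 with quantile normalization and to -0.116 without centring.

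Cycs (chr6:50562563-50566569) encodes somatic cytochrome c, which carries electrons in respiration and triggers the apoptosome once released. Its first probe had 0.125, 0.105 and -0.0428 in the 3 pairs (mean 0.0625 ± 0.0917, SD, n = 3; adjusted p = 0.997). As for Mcl1 in set 1, pair 1 was highest and pair 3 below 0. The other Cycs probe had -0.0533, 0.0367 and -0.0363 (mean -0.0176 ± 0.0478; adjusted p = 0.997). The 2 probes lay on opposite sides of 0 in pair 1 and on the same side in pair 2 and in pair 3.

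Aifm1 (chrX:48474944-48513563) encodes a flavoprotein of the intermembrane space that maintains respiratory complexes and, once released, takes part in chromatin breakdown. It had effects of 0.00124, 0.128 and 0.292 in the 3 pairs, a mean of 0.14 ± 0.146 (SD, n = 3), the largest size among the 14 probes. Of set 2 probes, 1.04% had a larger size, and limma's adjusted p was 0.94 (unadjusted p = 0.021). The exact sign-flip permutation test gave a two-sided p of 0.25, the smallest that 3 pairs allow.

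The size of the Aifm1 mean depended on single arrays and on the pair. With treated RNA in channel 1, the first and second arrays read 0.0987 and 0.0703 in pair 1, 0.422 and -0.0516 in pair 2, and 1.34 and 0.0964 in pair 3. With control RNA in channel 1 the 6 arrays lay between -0.145 and 0.195. Without the array at 1.34 the mean was 0.037 (limma adjusted p = 0.998), a choice made after seeing the value, and with second arrays alone it was -0.00598. Without pair 1, 2 or 3 it was 0.21, 0.147 or 0.0645 (limma adjusted p = 0.0634, 0.185 and 0.734).

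Pdcd5 (chr7:35641985-35647482) encodes a small protein that moves to the nucleus in dying cells. It had -0.294, 0.071 and -0.0535 in the 3 pairs, a mean of -0.0923 ± 0.186 (SD, n = 3; adjusted p = 0.997). In pair 1 the arrays read -0.0526 and 0.124 with treated RNA in channel 1 against 0.646 and 0.602 after the exchange. Without that pair the mean was 0.00878. Set 2 holds a probe of the pseudogene Pdcd5-ps, singled out after its values were seen, with 0.0873, -0.0448 and -0.0851. How far a probe of either also binds RNA of the other was not tested, so both are uncertain. Pdcd6 (chr13:74303121-74317326) encodes ALG-2, a calcium-binding adaptor that acts in membrane repair and vesicle traffic. Its effects of 0.0253, 0.0946 and -0.0415 averaged 0.0261 ± 0.0681 (adjusted p = 0.997).

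**Figure D2:**
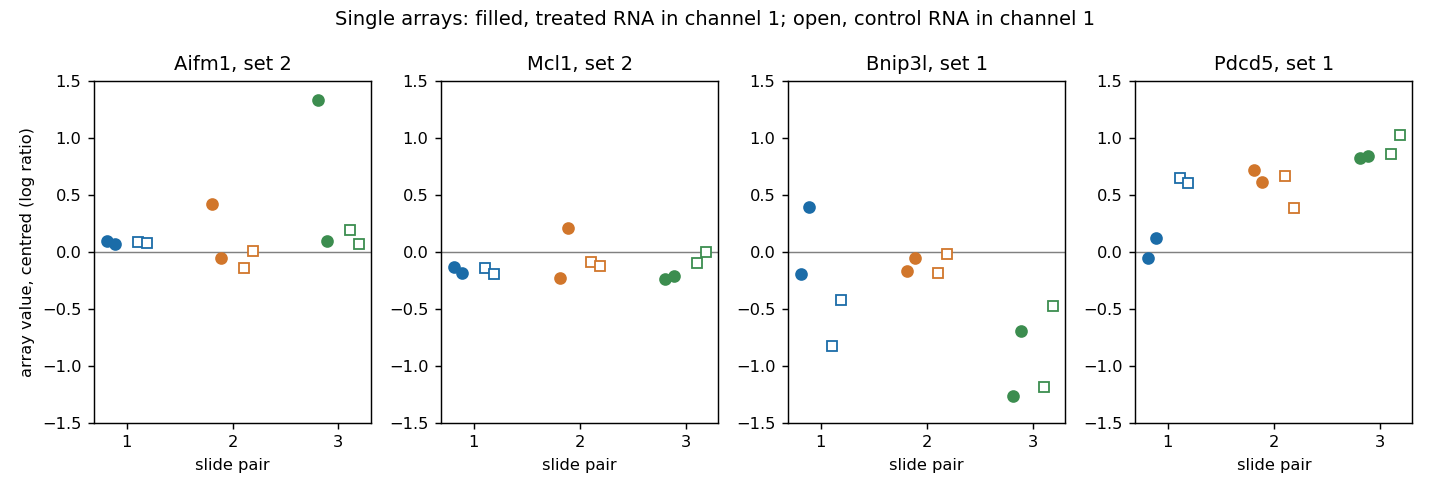
Centred values of single arrays (y axis, log ratio) by slide pair (x axis) for 4 member probes; filled circles have treated RNA in channel 1 and open squares control RNA in channel 1, 2 arrays per slide. Aifm1 has 1 array at 1.34, Mcl1 1 array at 0.207, and for Bnip3l and Pdcd5 the circles and squares of pair 1 lie farther apart than those of the other pairs.

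Signs in set 1 differed between pairs. Of its 9 member probes, 6 were above 0 in pair 1, 7 in pair 2 and 2 in pair 3, where 58.6%, 51.2% and 40.6% of all probes were. The member medians were 0.0253, 0.0689 and -0.0428. In set 2, 4, 3 and 3 of 5 were above 0, against 46.3%, 49.3% and 47.4% of all probes. These counts over so few members are no result about them. Between pairs, the effects of all set 1 probes had r of -0.144 (pairs 1 and 2), -0.0117 (1 and 3) and 0.00852 (2 and 3). Across all probes of set 1, which are not independent replicates, effect and sum component had Pearson's r of -0.456, 0.374 and 0.154 in pairs 1, 2 and 3. The values for set 2 were 0.104, 0.118 and 0.143. With a smooth trend of this kind removed in each pair, an alternative chosen after seeing the data, the set 1 means of Mcl1, Bnip3l and Pdcd5 were 0.0583, 0.0866 and -0.0987, and among the 14 probes Diablo alone changed sign, to -0.0112.

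**Figure D3:**
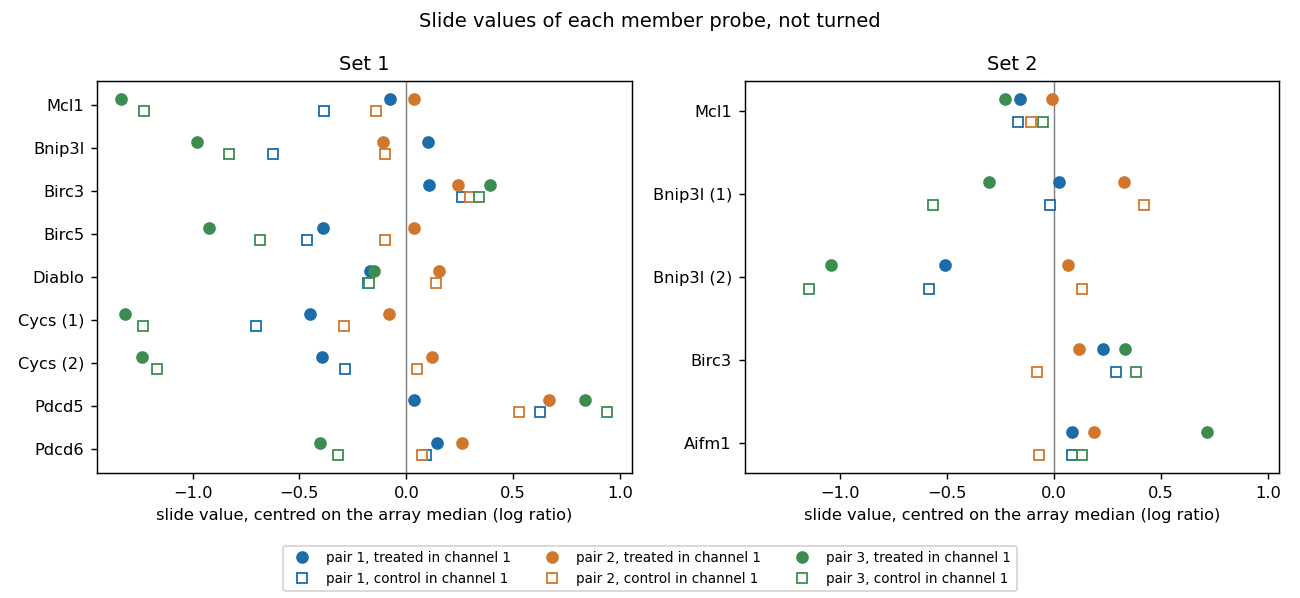
Slide values before any turning (x axis, log ratio centred on the array median) for each member probe; circles have treated RNA in channel 1, squares control RNA in channel 1, and colours mark the pair. For most probes circle and square of a pair lie close together while pairs lie apart, with Mcl1 and both Cycs probes of the left panel lowest in pair 3.

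The sum component was larger in size than the treatment effect for every member probe except the first Bnip3l probe of set 2. For Pdcd6 they were close in size, at -0.0267 and 0.0261. This is not particular to members. Over all probes the median absolute sum component was 0.172 in set 1 and 0.148 in set 2, against 0.0354 and 0.0234 for the treatment effect. Cycs had slide values of -0.451, -0.0833 and -1.32 in pairs 1, 2 and 3 with treated RNA in channel 1 and of -0.702, -0.293 and -1.23 after the exchange on its first probe, a mean sum component of -0.68 ± 0.55 (SD, n = 3). Exchange of the channels left these values on the same side of 0 in every pair. Mcl1 had -0.076, 0.0344 and -1.33 against -0.383, -0.142 and -1.23 in set 1. Its sum component was -0.521 ± 0.663 there and -0.12 ± 0.0545 on the other platform. The 2 Bnip3l probes of set 2 had -0.0197 ± 0.404 and -0.516 ± 0.597, although they are annotated to the same gene, and the set 1 probe had -0.424 ± 0.424.

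Birc5 had a sum component of -0.421 ± 0.386 (SD, n = 3) and the other Cycs probe -0.486 ± 0.656. On the positive side were Pdcd5 at 0.604 ± 0.279, with all 6 slide values between 0.0357 and 0.94, and Birc3 at 0.272 ± 0.0907 and 0.212 ± 0.175 on its probes of sets 1 and 2. Diablo had -0.0651 ± 0.182, from -0.177, 0.145 and -0.164, and Pdcd6 -0.0267 ± 0.291, from 0.116, 0.165 and -0.361, so their pairs fell on both sides of 0. Aifm1 had 0.188 ± 0.205.

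Read without turning, so that the sum component stands for treatment, 0 of 9 set 1 probes passed the adjusted test, where 2.85% of probes did, and 0 of 5 in set 2, where 0% did. At an unadjusted p under 0.05 with limma there were 4 of 9 and 0 of 5, against 18.5% and 16.3% of all probes. Of the 14 probes, 9 had opposite signs under the 2 readings. The share over all probes is not given here, so this count is no result about members. The lowest adjusted p-values among members were 0.0982 for the first Cycs probe and 0.115 for Pdcd5. From slides with treated RNA in channel 2 alone, where dye and treatment cannot be told apart, 8.7% of all set 1 probes passed and 0% of set 2. Among members these 2 probes did, Cycs at 0.742 (limma adjusted p = 0.0232) and Pdcd5 at -0.697 (adjusted p = 0.0261). From slides with treated RNA in channel 1 alone they had the opposite signs, -0.617 and 0.512.

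Other genes of the pathway were taken from 12 lists. With members left out, the lists held 34 measured genes in set 1 and 43 in set 2, and 0 of either passed limma's adjusted test. At an unadjusted limma p under 0.05, by the lowest p over a gene's probes, there were 1 and 2. Of all single probes, 2.34% in set 1 and 5.22% in set 2 had one. In set 1, 5 genes were above 0 and 1 below in all 3 pairs, where 13.4% and 10.2% of all genes were, and the median was 0.0185 against 0.00116 over all genes. In set 2, 9 were above and 8 below, against 9.72% and 16.2% of all genes, with a median of 0.00769 against -0.00316.

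Of BCL2 family genes, the survival member Bcl2l10 had -0.411, 0.21 and -0.0624 in the pairs of set 1 and a mean of 0.00769 in set 2. The pore-forming member Bok had 0.015 ± 0.0112 (SD, n = 3), above 0 in every pair, and Bnip1, a membrane-fusion protein of the endoplasmic reticulum, had -0.0651 ± 0.048, below 0 in every pair. Bnip3, a close relative of Bnip3l, had 0.0795, -0.0227 and 0.045 in set 2. Its signs by pair were those of both Bnip3l probes there. This match was picked out after the values were seen and not set against all probes of the set, so it shows no shared response. The giant inhibitor of apoptosis Birc6 had means of -0.055 and 0.0152 in sets 1 and 2, and Htra2, a mitochondrial protease that also displaces these inhibitors, had -0.0356 in set 1.

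Caspases and their targets were measured in set 2 only, with 7 genes and a median of 0.0265. Of these, 3 were above 0 in all pairs and 0 below, where 9.72% and 16.2% of all genes were. The 3 were Casp9, the caspase of the apoptosome, at 0.0296 ± 0.0259 (SD, n = 3), Casp6, an executioner caspase, at 0.0265 ± 0.0235, and Acin1, a chromatin protein cleaved by caspases, at 0.0579 ± 0.0189. By mean effect, 5 of the 7 genes were above 0 and 2 below, the lowest at -0.0729. With so few genes, these counts are no result about the list. No gene of the list passed limma's test. Death receptor and adaptor genes had medians of 0.0216 over 4 genes in set 1 and 0.00392 over 4 in set 2, with no gene of 1 sign in all pairs. Fas, the death receptor and a p53 target, had -0.00916, 0.141 and -0.136 in the pairs of set 1 and -0.0602, 0.109 and -0.137 in those of set 2. Its highest value was in pair 2 and its lowest in pair 3 on both platforms.

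Among Pdcd genes that are no members, Pdcd10, an adaptor of vascular integrity, was below 0 in all 3 pairs of both sets, with means of -0.0566 ± 0.0154 and -0.0155 ± 0.0196 (SD, n = 3; lowest adjusted p over its probes 0.997 and 0.994). Whether both sets used the same RNA is not given, so these are not counted as 6 independent pairs. Pdcd6ip, the ALIX protein that binds ALG-2, had 0.0322 ± 0.0185 and was above 0 in each pair. The ALG-2 partner Sec31a, a coat protein of vesicles leaving the endoplasmic reticulum, had -0.0837 ± 0.0216 in set 2 (adjusted p = 0.94). Aurkb, the kinase of the complex that holds survivin, had 0.121, 0.146 and 0.152, a mean of 0.14 ± 0.0169 (adjusted p = 0.997), while its partners Incenp and Cdca8 had 0.0201 and 0.0605. Birc5 itself lay at -0.00399.

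No survival regulator or channel gene passed limma's adjusted test. Bag5, a co-chaperone of HSP70, had 0.118 ± 0.0678 (SD, n = 3; adjusted p = 0.883), and Ghitm, a protein of the inner mitochondrial membrane, had 0.0726 ± 0.0357 in set 1 and -0.0239 in set 2. Api5, an inhibitor of apoptosis outside the Birc family, had -0.0519 ± 0.0436, Tpt1, a growth-associated survival protein, had 0.0352 ± 0.0243, and the co-chaperone Bag2 had 0.0289 ± 0.0188. Bag6, a chaperone of membrane proteins, had -0.0343, 0.0305 and 0.419 in the pairs of set 1, a mean of 0.139 ± 0.245 set by pair 3. The outer membrane channel Vdac1 had 0.0634 ± 0.0578 in set 1 and 0.0225 in set 2. The nucleotide carrier Slc25a5 was below 0 in each pair of set 2 at -0.0557 ± 0.0421 but had 0.0548 in set 1. Tomm20, an import receptor, and Phb2, a prohibitin, were below 0 in each pair of set 2 at -0.0252 and -0.0319, but Tomm20 had 0.0342 in set 1. Channel genes as a list had medians of 0.0359 over 8 genes and -0.00493 over 14.

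**Figure D4:**
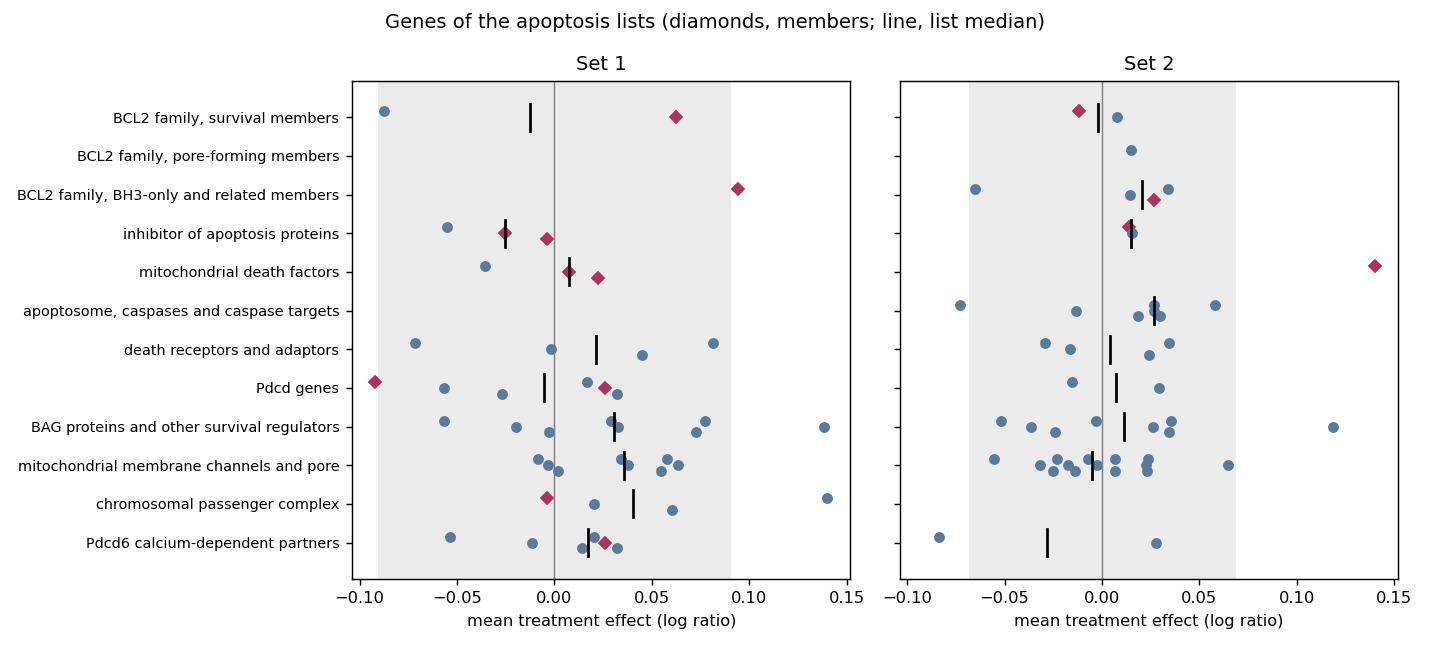
Mean treatment effect (x axis, log ratio) of each measured gene in the 12 lists, with the sets of arrays as panels; diamonds are members, circles other genes, black lines list medians, and the grey band holds 90% of all probes. Most genes lie inside the band, with Aurkb and Bag6 farthest on the positive side in the left panel and Aifm1 and Bag5 in the right.

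The probes most like a member, by the root mean square difference over the 6 slide values of a set, belonged to Ppa1 and Marcksl1 for Mcl1 in set 1 (differences 0.0438 and 0.0471) and to Ubl5 and Atp5b for the first Cycs probe (0.0452 and 0.0499). For Pdcd5 they were Nol4 and Zdhhc5 (0.0397 and 0.0471), for Birc5 Psmc2 and Naa15 (0.0511 and 0.0566) and for Diablo Mrps7 and Cramp1l (0.0402 and 0.055). Mcl1 in set 2 was nearest to Srp9 at 0.037. The nearest probes of Bnip3l in set 1, of Orc4, and of Aifm1, of 2810403D21Rik, were farther off, at 0.116 and 0.119. Slide values were compared without turning, so these differences hold the sum component beside the treatment effect. Likeness here is therefore no measure of a shared response to treatment.

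Whole-embryo RNA mixes tissues, and log ratios hold no level, so the presence of embryonic cell types could not be checked. Of 11 listed yolk sac endoderm genes, the 4 measured had means below 0 in set 1 (median -0.0376, against 0.00116 over all genes). Of 7 listed primitive red cell genes, the 3 measured did in set 2 (median -0.0537, against -0.00316), among them the embryonic globin gene Hba-x at -0.0877. Below 0 in all 3 pairs were 1 and 2 of them, where 10.2% and 16.2% of all genes were. With so few markers, these counts are no result about the tissues. Neural tube markers had a median of 0.0536 over 3 genes of set 1. Trophoblast and decidua markers had 0.0971 over 2 genes in set 1 and -0.0527 for 1 in set 2. No heart marker was measured. No marker passed limma's test, and their part in member values was not tested.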

How the data were processed

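The deposited scores are log ratios of the 2 channels, 1 per probe and array, judged from the values themselves: per the labels, treated and control RNA shared each array, while base, numerator, dyes, background correction and normalization are not stated in them. Spot intensities were not used, which leaves signal over background unknown, and the number of arrays limits the precision. Probes were named from the platform annotation, with symbols updated by gene identifier through RefSeq (GRCm38.p6). In set 1, 4749 probes had 1 symbol, 227 several and 2704 none, and in set 2 4935, 275 and 2470; only probes with 1 symbol were named.

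Arrays were centred on their medians, which ran from -0.305 to 1.12 in set 1 and from 0.272 to 2.1 in set 2. The 2 arrays of a slide were averaged and a treatment effect was computed per slide pair, the pairing being given by the titles. Mean effects were tested against 0 over all 7680 probes of each set with limma 3.58.1 in R 4.3.3 and Benjamini-Hochberg adjustment. The design had assumed log ratios without naming a base. The choice of base leaves limma's p-values as they are. Members and lists were chosen with earlier results of these data known. Besides members, up to 3 genes of each list were named per set, those of largest mean effect among genes with 1 sign in all pairs, and list genes measured in both sets could be named for both values; Bnip3, Htra2, Incenp, Cdca8 and Bag6 were named after their values were seen. The code was tested on simulated data. Alternatives covered centring, scaling, single arrays, orientation, turning, left-out pairs, a robust prior and, chosen later, removal of a trend and of single arrays.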

Additional observations from a re-analysis of the deposited data

Results flagged for a closer look

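Of 28 sets of 6 arrays, 1 for each member probe and channel orientation, 2 held an array far from the others by Dixon's criterion, where chance marks about 1 in 20 if the 6 values are independent. They are not, since each set holds 3 pairs with 2 arrays per slide. Over all 7680 probes the same criterion marked 2.3% and 3.71% in set 1 and 8.48% and 3.63% in set 2, with treated and with control RNA in channel 1. For Aifm1 the first array of pair 3 with treated RNA in channel 1 read 1.34, against -0.0516 to 0.422 on the other 5, a gap of 0.659 of the whole range. For the set 2 probe of Mcl1 the second array of pair 2 with treated RNA in channel 1 read 0.207, against -0.242 to -0.13 on the other 5, a gap of 0.751 of the range. The other arrays of those slides read 0.0964 for Aifm1 and -0.226 for Mcl1. The cause was not tested.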

How the results depend on the processing

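Counts of probes past the adjusted threshold were 0 in both sets with limma, where 180 probes of set 1 and 401 of set 2 had an unadjusted p under 0.05. They were also 0 under scaling, quantile normalization, single arrays per slide, the robust prior and removal of the trend or of single arrays. The fit with no replicate block, a slide-level model with a dye term, gave 0 in each set. Its mean effects equal those of the main fit by construction, so no sign could turn. Its p-values differed, with an unadjusted limma p of 0.196 for Aifm1 against 0.021 in the main fit. Set 1 gave 33 without centring, 219 without turning, 174 with treated RNA in channel 1 only, 668 with it in channel 2 only and 24 to 30 with a pair left out. Set 2 gave 1 without centring and, with a pair left out, 0 to 58, the former without pair 3. No member probe passed in any of these except the first Cycs probe and Pdcd5 with treated RNA in channel 2 only. A filter on low values was not run, since log ratios hold no level.

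Signs of members changed as follows. Without centring, where the median effect of all probes is -0.128 in set 1 and -0.0543 in set 2, set 1 gave Mcl1 -0.0612, Bnip3l -0.0294, Diablo -0.116, the first Cycs probe -0.0614 and Pdcd6 -0.0977, and set 2 gave Birc3 -0.0389 and Bnip3l -0.0184 and -0.0343. Scaling and quantile normalization turned Birc5 to 0.0125 and 0.00914, Diablo to -0.0134 and -0.0155 and Mcl1 of set 2 to 0.0119 and 0.0143. First arrays alone gave Pdcd6 -0.0346 and the second Cycs probe 0.00883. Second arrays alone gave Birc5 0.0312, Aifm1 -0.00598, Mcl1 of set 2 0.0221 and the second Bnip3l probe there -0.0156. Without turning, set 1 gave Mcl1 -0.521, Bnip3l -0.424, Birc3 0.272, Diablo -0.0651, the first Cycs probe -0.68, Pdcd5 0.604 and Pdcd6 -0.0267, and set 2 gave Bnip3l -0.0197 and -0.516. Channel 1 only gave Mcl1 -0.458, Bnip3l -0.329, Birc3 0.247, Diablo -0.0576, the first Cycs probe -0.617, Pdcd5 0.512, Pdcd6 -0.00053 and the second Bnip3l probe of set 2 -0.497. Channel 2 only gave Birc5 0.418, the second Cycs probe 0.468, and in set 2 Aifm1 -0.0481, Birc3 -0.198 and Mcl1 0.108. With the trend removed Diablo had -0.0112. Without the far Aifm1 array, left out for all probes of that set, its Bnip3l probes had -0.00743 and -0.0168. With a pair left out, ranges that crossed 0 were -0.0393 to 0.179 for Bnip3l of set 1, -0.0404 to 0.0528 for Birc5, -0.0448 to 0.000195 for the second Cycs probe, -0.174 to 0.00878 for Pdcd5, -0.00811 to 0.0599 for Pdcd6, and in set 2 -0.0418 to 0.0268 for Mcl1, -0.0135 to 0.0753 for the first Bnip3l probe and -0.0283 to 0.0364 for Birc3. The cause of these changes was not tested.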
